A study of Mus musculus with 4 samples.

Results

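The proteasome genes of fetal mouse oocytes were compared between mothers on a normal diet (ND) and mothers on a high-fat diet (HFD). They were taken as the protein-coding genes whose symbol begins with Psma, Psmb, Psmc, Psmd or Psme and a digit, a rule that uses names and no measured value. It found 45 of the 55401 genes in the count files, among 21897 protein-coding genes, and 43 of the 45 passed the filter on low counts, with 19335 genes in all. Of the 45, Psmc3ip matched by its name only, since it encodes a cofactor of meiotic recombination and not a proteasome subunit. RNA came from SSEA-1-positive germ cells of female fetuses at E18.5, sorted by flow cytometry, in 2 samples per diet. The labels call these cells primordial germ cells of the ovary, and at this age they are oocytes in meiotic prophase. The mothers were ICR mice given ND or HFD for 4 months from a young age, and no allele or drug differed between the diets. Each sample pooled oocytes of several fetuses, so single fetuses and litters cannot be told apart, and the p-values measure only the spread between these samples.

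The proteasome is the main protease of the cytosol and nucleus and degrades proteins tagged with ubiquitin. Its 20S core is a barrel of alpha and beta rings, in which 3 beta subunits hold the active sites, and the 19S particle at its ends recognizes, unfolds and feeds in the substrate. Immune cells and interferon-treated cells swap the active subunits for immunoproteasome forms, the thymus cortex has a form of its own, and spermatocytes use an alternative alpha subunit. In meiosis, proteasomes are known to associate with chromosome axes and to take part in synapsis and recombination.

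Both sequences shown here are of catalytic subunits that lie far apart in RNA level. Psmb6 (beta 1) and Psmb5 (beta 5) each hold, upstream of their start, the letters TGACNNNGC, the core of the antioxidant response element through which NFE2L1 is known to raise proteasome genes. The 250 bases before the RefSeq transcription start are printed 5′ to 3′ on the gene's strand, from RefSeq on GRCm38.p6, with the motif in capitals. Psmb6 lies on the + strand and the stretch shown is chr11:70525107-70525356, and Psmb5 lies on the − strand with chr14:54617996-54618245.
Psmb6: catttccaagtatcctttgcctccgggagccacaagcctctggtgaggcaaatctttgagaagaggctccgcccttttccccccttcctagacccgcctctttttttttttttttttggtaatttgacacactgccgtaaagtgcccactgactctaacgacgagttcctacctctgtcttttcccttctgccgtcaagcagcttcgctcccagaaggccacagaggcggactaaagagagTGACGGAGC
Psmb5: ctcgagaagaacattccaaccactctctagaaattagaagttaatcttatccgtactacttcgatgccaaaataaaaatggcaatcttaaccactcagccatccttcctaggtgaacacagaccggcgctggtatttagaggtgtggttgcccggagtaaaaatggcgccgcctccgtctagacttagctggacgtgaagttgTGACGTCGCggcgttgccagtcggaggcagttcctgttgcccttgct
The first base of the motif lay 9 bases before the start in Psmb6 and 47 bases before it in Psmb5.

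The motif did not set the proteasome promoters apart. RefSeq promoters (250 bases before to 50 after the start) were found for 38 of the 45 genes and were searched on both strands. TGACNNNGC was in 6 of the 38 (15.8%), those of Psmb5, Psmb6, Psmc6, Psmd9, Psmd12 and Psme4, and in 13.0% of 21263 promoters of protein-coding genes. CCAAT was in 39.5% of the 38 against 38.2%, and GGGCGG, the core of the GC box, in 57.9% against 46.2%. TTCCGG, the core of sites for ETS factors, was searched after the promoters had been seen, and was in 18 of the 38 (47.4%) against 18.7% of protein-coding promoters. These shares describe letters in a window and no test was made on them.

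The total count was 8223255 and 7815015 for ND (replicates 1 and 2) and 6456825 and 5723605 for HFD. Levels are given as CPM on these totals (counts scaled to a common library size), and as RPKM (the same per kilobase of exon) where levels of different genes are compared. As a background limit, the 99th percentile of reads per kilobase over 1135 olfactory receptor genes came to 1.03, 1.15, 1.15 and 2.19 RPKM in ND replicates 1 and 2 and HFD replicates 1 and 2. Both HFD libraries stood apart, in opposite directions, with TMM factors of 0.692 (replicate 1) and 1.51 (replicate 2) against 1.02 and 0.940 in ND. Germ cell markers summed to 2191 and 4502 CPM in ND and 5611 and 5631 CPM in HFD, and 7 of 12 were above background in every library. These sums rested on different genes, with Dazl at 1733 and 3770 CPM in ND and 453 and 8.56 CPM in HFD. Ddx4 and Dazl were below ND in both HFD libraries. Sycp1, Figla, Nobox, Sohlh1, Taf7l and Dppa3 were above ND in both, and the remaining markers overlapped. Stroma markers summed to 2676 and 58.9 CPM in ND and 1600 and 7062 CPM in HFD. Pregranulosa markers summed to 27.8 and 408 CPM in ND and 16.9 and 1158 CPM in HFD. Single genes made most of the larger pregranulosa sums, Fst in ND replicate 2 (383 CPM) and Amhr2 in HFD replicate 2 (1113 CPM). Red blood cell markers summed to 1973 CPM in ND replicate 1 and to at most 10.8 CPM in the others, with Hbb-bs at 0 counts in ND replicate 2 and Hba-a1 at 0 in HFD replicate 2. Endothelium markers summed to at most 72.6 CPM except in HFD replicate 1 (701 CPM), where Kdr alone made 681 CPM. Of the 9 leukocyte markers, 7 were at background in all libraries. The part of these other cells in the values below was not tested, and in pooled RNA fewer cells of a type and less RNA per cell cannot be told apart.

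The proteasome genes together took more of the RNA in the ND than in the HFD libraries. In ND they held 1.43% and 1.34% of all reads counted (replicates 1 and 2, exact 95% binomial intervals 1.42 to 1.44% and 1.34 to 1.35%). The share was 0.864% in HFD replicate 1 (0.857 to 0.871%) and 0.837% in HFD replicate 2 (0.830 to 0.845%), and these intervals cover counting error only. The summed level was 13879 ± 618 CPM in ND and 8505 ± 187 CPM in HFD (SD, n = 2), a ratio of 1.63, and the diets did not overlap. No p is given for this sum over genes. The sum rested on a few genes that differed from library to library. Psma1, Psmb6 and Psma6 held 55.6% of the proteasome reads in ND replicate 1, and Psmd6, Psmb6 and Psma3 held 60.0% in ND replicate 2. In HFD replicate 1 the leading genes were Psmb6, Psmb4 and Psmc1 (54.2%), and in HFD replicate 2 they were Psma4, Psmb4 and Psmd2 (93.0%). Psma4 alone held 61.8% of the proteasome reads of HFD replicate 2. Without the leading gene of each library the sums were 11138 and 10522 CPM in ND and 5694 and 3201 CPM in HFD. Scaled by TMM factors, the sums were 14390 and 14604 CPM in ND and 12674 and 5738 CPM in HFD, so the gap between HFD replicate 1 and ND was smaller on that scale.

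**Figure D1:**
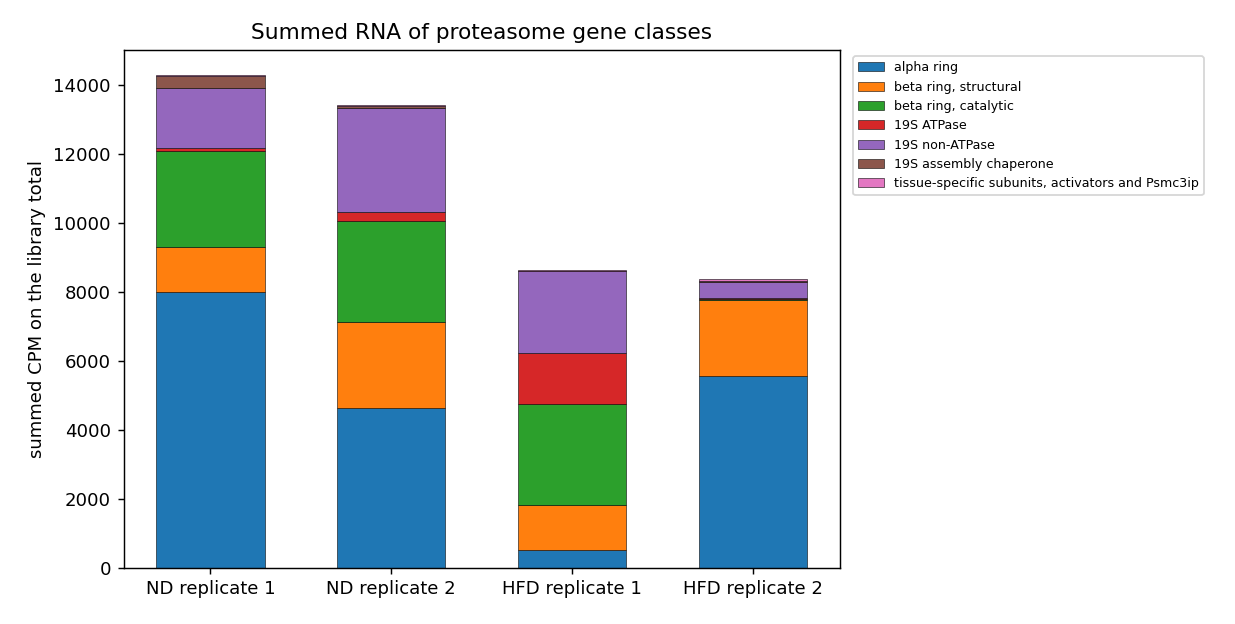
Summed CPM on the library total (vertical axis) of each class of proteasome genes, stacked, in the 4 libraries. The ND bars end at 14316 and 13442 CPM and the HFD bars at 8637 and 8372 CPM, while the alpha ring (blue) is 515 CPM in HFD replicate 1 and 8018 CPM in ND replicate 1, and the catalytic beta subunits (green) are 25 CPM in HFD replicate 2 and at least 2787 CPM in the others.

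Of the 45 genes, 32 and 30 were above background in ND, and 21 and 13 in HFD. These are 71.1% and 66.7% in ND and 46.7% and 28.9% in HFD, where all protein-coding genes gave 24.9% and 22.1% in ND and 13.3% and 15.2% in HFD. In all 4 libraries 11 genes were above background, 9 of them among the 14 standard core subunits and 2 among the 20 genes of the 19S particle and its chaperones. The numbers depended on the limit. With the 95th percentile of olfactory receptor genes as the limit, 38 and 34 genes were above it in ND and 24 and 28 in HFD. The share of all protein-coding genes at that limit is not given. At the higher level of 50 CPM, 26 of the 45 were reached in at least 1 library, but 14 of these (53.8%) in only 1 library and none in all 4. Among protein-coding genes over 50 CPM in any library, 70.8% were so in 1 library and 2.92% in all 4. Psmb1 and Psmb6 were over 50 CPM in both ND libraries and HFD replicate 1, and Psma2, Psma4, Psmb4 and Psmd2 in both HFD libraries and ND replicate 1.

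Replicates of the same diet differed more for proteasome genes than for genes at large. The median size of the log2 ratio between replicates, on CPM with 1 added, was 1.30 in ND and 1.71 in HFD over the 43 proteasome genes, and 0.63 and 1.13 over the 19335 genes tested. Replicates lay more than 32-fold apart for 11 of the 43 genes in ND (25.6%, against 5.19% of all genes) and for 9 in HFD (20.9%, against 6.26%). These figures are descriptions, since proteasome genes are also more abundant than most.

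**Figure D2:**
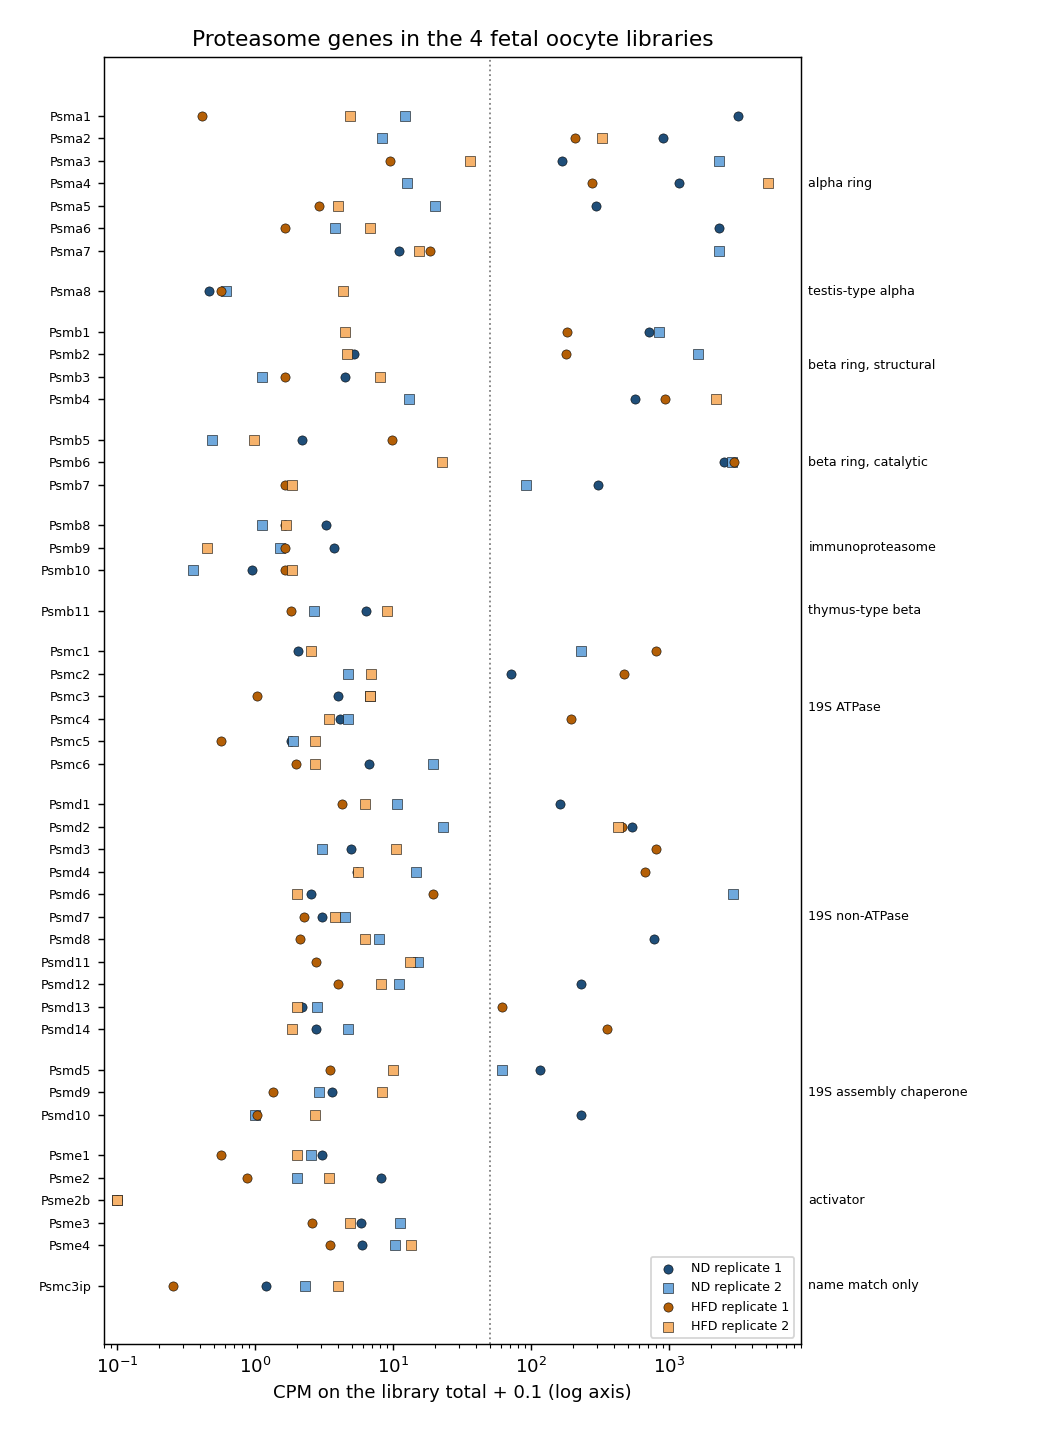
CPM on the library total plus 0.1 (horizontal log axis) of each of the 45 genes, grouped by role, with 1 point per library (ND in blue, HFD in orange, circles for replicate 1 and squares for replicate 2) and a dotted line at 50 CPM. Of the 26 genes with a point right of the line, 14 have 1 point there, and such points come from both diets.

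The alpha ring, 7 subunits that close the barrel and gate its entrance, was led per length by Psma6 in ND replicate 1 (1868 RPKM), by Psma7 in ND replicate 2 (742 RPKM) and by Psma4 in both HFD libraries (116 and 2182 RPKM). Its sum was 8018 and 4646 CPM in ND and 515 and 5565 CPM in HFD, so the diets overlapped. Psma1 (alpha 6, chr7:114264606-114276118) had 26131 and 95 counts in ND and 2 and 27 in HFD, that is 3178, 12.2, 0.310 and 4.72 CPM. Both HFD libraries were below both ND libraries, although the ND replicates were over 32-fold apart. Psma5 (alpha 5) had 2407 and 156 counts in ND and 18 and 22 in HFD, again without overlap. Psma3 (alpha 7) had 1366 and 18053 counts in ND and 61 and 206 in HFD, also without overlap, and its fitted log2 fold change was −6.12 (SE 2.49). The processed pseudogene Gm13835 shares 100% identity with Psma3 over 685 bases, and Gm8394 shares 98.6% with Psma5 over 952 bases. Whether reads fitting a gene and its copy were left uncounted was not tested, so the levels of Psma3 and Psma5 are uncertain. Psma6 (alpha 1) had 2306 and 3.71 CPM in ND and 1.55 and 6.64 CPM in HFD, and Psma4 (alpha 3) had 1170 and 12.4 CPM in ND and 275 and 5172 CPM in HFD. For both, the ND libraries lay on either side of an HFD library. The fitted log2 fold changes, HFD minus ND, were −9.74 (SE 3.70) for Psma1, −5.55 (SE 1.83) for Psma5, −8.40 (SE 3.42) for Psma6 and 1.73 (SE 2.61) for Psma4. Without ND replicate 1 the value of Psma1 was −2.93, that of Psma5 −2.75 and that of Psma6 −0.33, and without HFD replicate 2 that of Psma4 was −0.55. Without ND replicate 2 the value of Psma3 was −3.19.

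The catalytic subunits of the core were read at very unequal levels. Psmb6 (ENSMUSG00000018286, chr11:70525367-70527858), which carries the caspase-like site, had 1324 and 1513 RPKM in ND and 1572 and 11.9 RPKM in HFD. Psmb6 RNA was thus high in every library but HFD replicate 2, which also held the least RNA of the whole catalytic class (25 CPM against 2787, 2924 and 2955 CPM). The log2 fold change of Psmb6 was −0.36 (SE 2.63), and without HFD replicate 2 it was 0.64. Psmb7 (beta 2, ENSMUSG00000026750), the trypsin-like subunit, had 89.2 and 26.6 RPKM in ND and 0.453 and 0.511 RPKM in HFD. Both HFD libraries lay below background for Psmb7, with 10 counts each against 2510 and 711 in ND. Its log2 fold change of −6.86 (SE 1.68) had the smallest unadjusted p of the 43 genes in the edgeR fit (adjusted p = 0.405), and ranged from −7.50 to −5.88 when single libraries were omitted. Psmb7 shares 405 exon bases with the opposite-strand gene Nek6, whose own counts were 47 to 78. Psmb5 (ENSMUSG00000022193), the chymotrypsin-like subunit and target of proteasome-inhibitor drugs, had 17 and 3 counts in ND and 63 and 5 in HFD. At 2.30 and 0.427 RPKM in ND and 10.9 and 0.972 RPKM in HFD, it was above background in replicate 1 of each diet only. The fitted difference of 2.56 on the log2 scale (SE 1.60, edgeR adjusted p = 0.519) was, without HFD replicate 1, −1.16. The processed pseudogenes of Psmb5 held at most 9 counts in a library. The closest, Gm3375, shares 98.9% identity over 796 bases, and whether reads fitting both were left uncounted was not tested, so the level of Psmb5 is uncertain.

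The structural beta subunits summed to 1289 and 2490 CPM in ND and 1298 and 2207 CPM in HFD, with the diets interleaved. Psmb4 (beta 7) had 564 and 12.9 CPM in ND and 936 and 2190 CPM in HFD, above ND in both HFD libraries, with a log2 fold change of 2.31 (SE 2.33, edgeR adjusted p = 0.743). Without ND replicate 1 it was 6.60 and without ND replicate 2 it was 1.28. Psmb1 (beta 6) had 715 and 849 CPM in ND and 182 and 4.37 CPM in HFD, below ND in both. Psmb3 (beta 3) was low throughout, with 8 to 45 counts, and 7 pseudogene copies of it held at most 4 counts each.

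Within a library, the 14 standard core subunits spanned a wide range although the barrel holds them in equal numbers. The lowest, median and highest were 1.90, 189 and 1868 RPKM in ND replicate 1 and 0.427, 10.9 and 1513 RPKM in ND replicate 2. In HFD replicate 1 they were 0.105, 8.40 and 1572 RPKM and in HFD replicate 2 they were 0.511, 4.39 and 2182 RPKM. The highest values lay within 1513 to 2182 RPKM, and the median was highest in ND replicate 1. The core summed to 11077 ± 1439 CPM in ND and 6282 ± 2141 CPM in HFD (SD, n = 2), a ratio of 1.76.

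The tissue-specific subunits were at the level of background. Psmb8 (beta 5i) had 26 and 8 counts in ND and 10 and 9 in HFD, Psmb9 (beta 1i) 30 and 11 against 10 and 2, and Psmb10 (beta 2i) 7 and 2 against 10 and 10. None of these immunoproteasome subunits was above background in any library, and together they made 7.66 and 2.69 CPM in ND and 4.65 and 3.67 CPM in HFD. Their log2 fold changes were −0.36 (SE 0.75), −1.06 (SE 1.22) and 1.57 (SE 1.03). Omitting single libraries, they ranged from −1.10 to 0.52, from −3.47 to −0.18 and from 0.94 to 2.50. Psmb10 was above ND in both HFD libraries, but at no more than 10 counts. Psma8, the alternative alpha 4 of spermatocytes, had 3 and 4 counts in ND and 3 and 24 in HFD, and failed the filter for the test. Psmb11 (beta 5t), known from the thymus cortex, had 51 and 20 counts in ND and 11 and 51 in HFD, and was just above background in ND replicate 1 only (1.29 RPKM). Its log2 fold change was −0.06 (SE 0.68), and without ND replicate 1 it was 0.54.

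The share of a tissue-specific form in the counts of the pair with its standard counterpart varied with the pair and the library. Psmb9 was 0.147% and 0.0497% of the Psmb9 and Psmb6 counts in ND and 0.0526% and 1.54% in HFD (Wilson 95% interval 0.423 to 5.44% for the last). Psma8 was 3.26%, 0.0225% and 2.48% of the Psma7 and Psma8 counts in ND replicates 1 and 2 and HFD replicate 1, and 21.4% in HFD replicate 2 (14.8 to 29.9%), where Psma7 had 88 counts. Psmb10 made 0.278% and 0.281% of the Psmb7 and Psmb10 counts in ND. It made 50% in each HFD library (29.9 to 70.1%), where both genes had 10 counts and lay under background. Beside the scarce Psmb5, Psmb8 made 60.5% and 72.7% of the counts of the pair in ND and 13.7% and 64.3% in HFD. Psmb11 made 75% and 87.0% of its pair with Psmb5 in ND and 14.9% and 91.1% in HFD, and the lowest share of both was in HFD replicate 1, where Psmb5 had 63 counts. The highest shares of Psmb9 and Psma8 were thus both in HFD replicate 2. All these shares are of counts and are not corrected for exon length, which is 4791 bases in Psmb11, 3381 in Psmb8 and 899 in Psmb5. Per length, Psmb8 was below Psmb5 in every library (0.935 against 2.30 RPKM in ND replicate 1). Psmb11 was below Psmb5 per length in replicate 1 of each diet. It was above Psmb5 in replicate 2 (0.534 against 0.427 RPKM in ND, 1.86 against 0.972 RPKM in HFD).

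**Figure D3:**
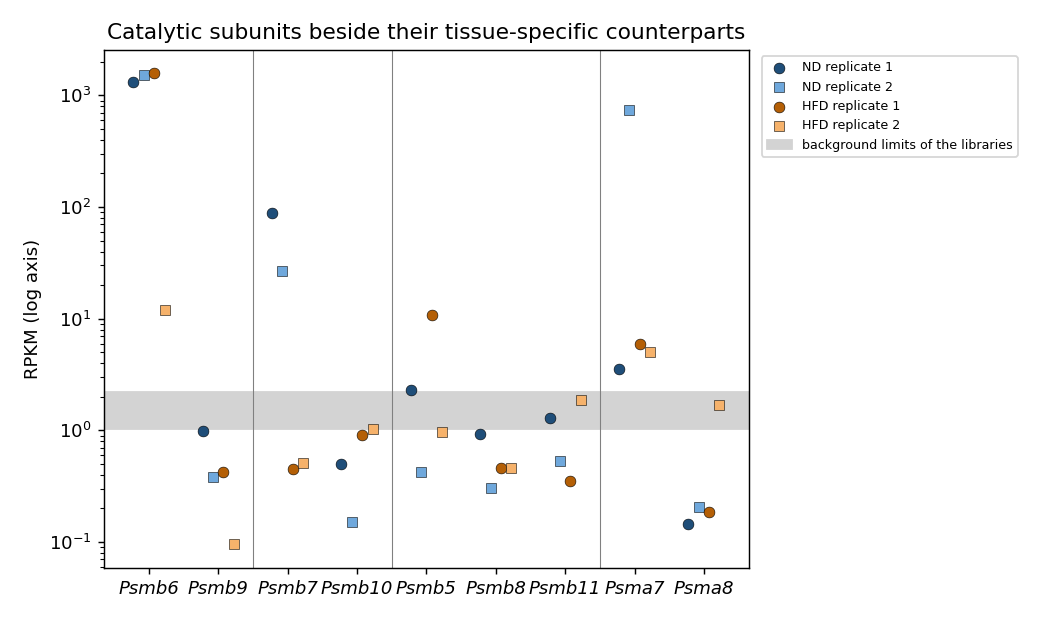
RPKM (log axis) of the standard subunits Psmb6, Psmb7, Psmb5 and Psma7 beside their tissue-specific counterparts, with 1 point per library and the range of the background limits of the 4 libraries in grey. All points of Psmb8, Psmb9, Psmb10 and Psma8 lie in or under the grey band, and Psmb6 lies above it in every library.

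The 6 ATPases of the 19S base, which unfold the substrate, summed to 89.9 and 267 CPM in ND and 1471 and 24.5 CPM in HFD. The highest and the lowest sums were both in HFD. Psmc1 (Rpt2) had 1.95 and 230 CPM in ND and 803 and 2.45 CPM in HFD, and its log2 fold change of 2.22 (SE 3.13) was −6.34 without HFD replicate 1. Psmc6 (Rpt4) had 6.57 and 19.2 CPM in ND and 1.86 and 2.62 CPM in HFD, with no overlap. For Psmc6 the log2 fold change was −2.59 (SE 0.77), or −1.58 without ND replicate 2.

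The 11 non-ATPase subunits, which include those of the lid, scaffold subunits of the base and ubiquitin receptors, summed to 1747 and 3016 CPM in ND and 2378 and 487 CPM in HFD. Psmd3 (Rpn3, chr11:98682554-98695979) had 40 and 23 counts in ND and 5141 and 59 in HFD, that is 4.86, 2.94, 796 and 10.3 CPM. It was the only one of the 43 genes with a higher fitted value in HFD at an unadjusted p under 0.05, with a log2 fold change of 7.18 (SE 2.88). That value rested on HFD replicate 1, without which it was 0.68. Psmd8 (Rpn12) had 783 and 7.81 CPM in ND and 2.01 and 6.12 CPM in HFD, Psmd1 (Rpn2) 161 and 10.6 against 4.18 and 6.12 CPM, and Psmd12 (Rpn5) 231 and 10.9 against 3.87 and 8.04 CPM. For all 3 the HFD libraries lay below ND, and ND replicate 1 was the high library. Their log2 fold changes of −6.79 (SE 2.61), −4.06 (SE 1.60) and −4.44 (SE 1.77) were −1.32, −1.22 and −1.15 without ND replicate 1. Psmd6 (Rpn7) had 2920 CPM in ND replicate 2 and at most 19.2 CPM elsewhere, and its log2 fold change of −6.75 (SE 3.77) was 2.61 without that library. Psmd2 (Rpn1), a docking site for ubiquitin shuttles, had 538 and 22.8 CPM in ND and 458 and 428 CPM in HFD. The log2 fold change of Psmd2 was 0.77 (SE 2.02), or 4.23 without ND replicate 1 and −0.18 without ND replicate 2.

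The dedicated assembly chaperones of the 19S base, Psmd5, Psmd9 and Psmd10, summed to 347 and 65.4 CPM in ND and 5.58 and 20.6 CPM in HFD, without overlap. Psmd5 (chr2:34849734-34874968) had 115 and 61.7 CPM in ND and 3.41 and 9.78 CPM in HFD. Both ND libraries were high and both HFD libraries low, and its log2 fold change of −3.96 (SE 1.15, edgeR adjusted p = 0.405) ranged from −4.37 to −3.59 when single libraries were omitted. Psmd10 (gankyrin, on chromosome X) had 228 CPM in ND replicate 1 and 0.896, 0.929 and 2.62 CPM in the others. Its log2 fold change of −6.17 (SE 2.46) was 0.61 without ND replicate 1. Psmd9 overlapped between the diets, with 8 to 47 counts.

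The activators, alternative caps of the core, were low in all libraries and summed to 22.5 and 25.7 CPM in ND and 7.12 and 23.4 CPM in HFD. Psme1 (PA28 alpha) had 24 and 19 counts in ND and 3 and 11 in HFD, and its log2 fold change was −1.45 (SE 0.55). Psme3 (PA28 gamma, nuclear) had 47 and 87 counts in ND and 16 and 27 in HFD, with a log2 fold change of −1.37 (SE 0.56), or −0.79 without ND replicate 2. For both, HFD lay below ND, and no HFD library was above background. Psme2 (PA28 beta) had 66 and 15 counts in ND and 5 and 19 in HFD, with a log2 fold change of −1.56 (SE 0.80), or −0.37 without ND replicate 1. Psme4 (PA200), known for its part in histone removal in spermatids, had 48 and 80 counts in ND and 22 and 77 in HFD. The fitted log2 fold change was −0.25 (SE 0.64), or 0.20 without ND replicate 2. Psme2b, a copy of Psme2 with 99.4% identity over 794 bases of transcript, had 0 counts in all libraries, which allows up to 0.365, 0.384, 0.465 and 0.524 CPM. Reads that fit both copies equally could have been left uncounted, so Psme2 and Psme2b are uncertain. Psmc3ip, the partner of the recombinases in meiosis, had 9 and 17 counts in ND and 1 and 22 in HFD. Its log2 fold change was −0.25 (SE 1.29), or −2.82 without HFD replicate 2 and 0.48 without HFD replicate 1, and 385 of its exon bases are shared with the opposite-strand gene Mlx.

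None of the 43 proteasome genes passed the test of the diets (edgeR quasi-likelihood, adjusted p under 0.05 and fold change over 1.5), and 0% of the 19335 genes did. The smallest adjusted p was 0.405, also among the proteasome genes. At an unadjusted p under 0.05, edgeR gave 2186 genes, 4.9% of those tested higher and 6.41% lower in HFD, and limma-voom gave 750 genes. Of the 43 proteasome genes, 11 were lower and 1 higher at that limit. They were 2 of the alpha ring (Psma1, Psma5), 1 catalytic subunit (Psmb7), 1 ATPase (Psmc6), 4 non-ATPase subunits (Psmd1, Psmd8, Psmd12 and, as the higher one, Psmd3), 2 chaperones (Psmd5, Psmd10) and 2 activators (Psme1, Psme3). Of the 11 lower ones, 10 had both HFD libraries below both ND libraries, and Psmd10 did not. The p and the overlap were read from the same libraries, so the second adds no support to the first. A p-value of a single gene from permuting 2 against 2 libraries cannot go below 0.333.

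The fitted differences were more often negative. Of the 43 genes 29 had a negative and 14 a positive log2 fold change, with a median of −0.78 against 0.03 over all genes tested. The median was −1.42 without HFD replicate 1 and −0.39 without ND replicate 2. Both HFD libraries lay below both ND libraries for 13 of the 43, where 13.4% of all genes tested did, and above for 3 (Psmb4, Psmb10 and Psmd3), where 13.9% did. By class, the median was −6.06 in the alpha ring, −1.06 in the structural and −0.36 in the catalytic beta subunits, and −0.36 in the immunoproteasome subunits. It was 0.84 in the 19S ATPases (3 positive and 3 negative), −0.43 in the non-ATPase subunits, −3.96 in the 19S chaperones and −1.41 in the activators. With a library left out, a diet is left with a single sample, so numbers of genes at an unadjusted p are not compared there.

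**Figure D4:**
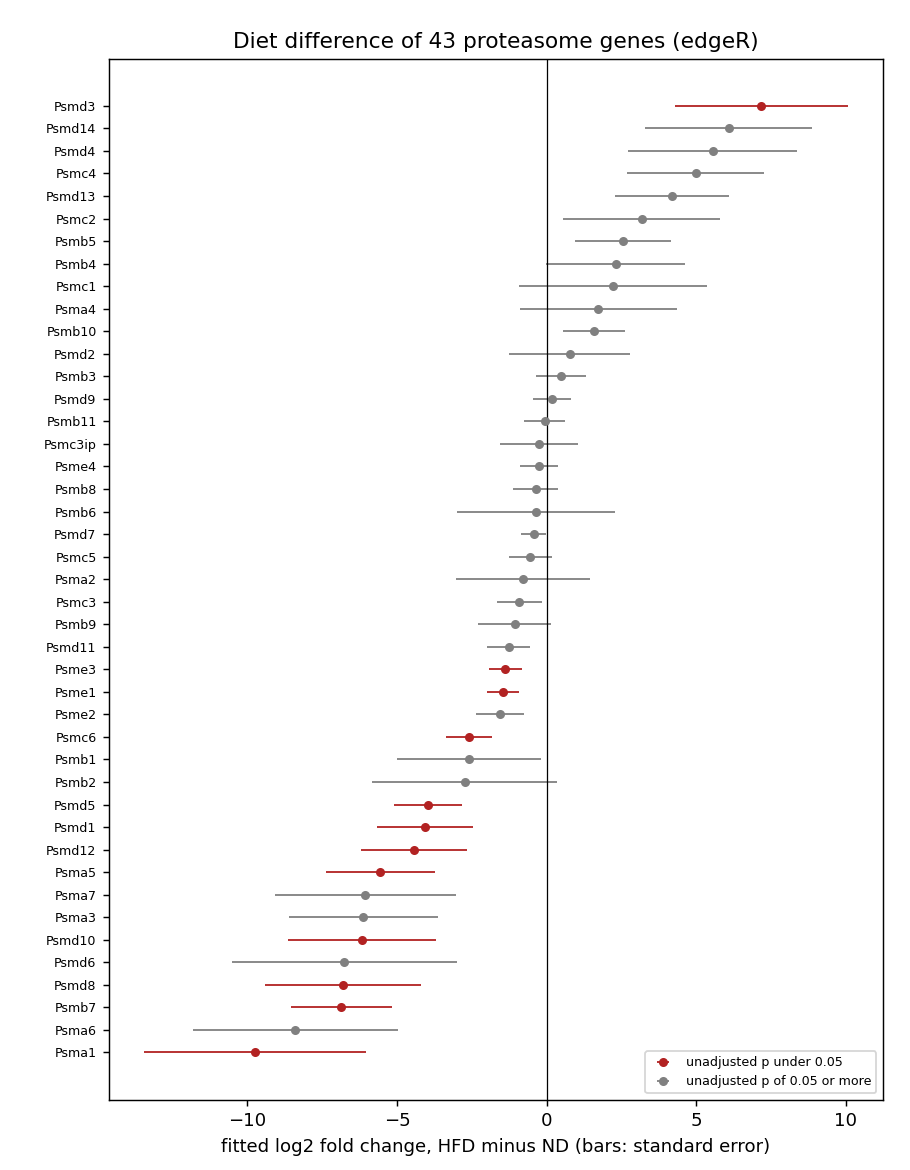
Fitted log2 fold change of the 43 tested proteasome genes, HFD minus ND (horizontal axis, edgeR on TMM-scaled counts), with bars of 1 standard error, in red where the unadjusted p was under 0.05. The points reach from −9.74 (Psma1) to 7.18 (Psmd3). The bar of Psmd6 (SE 3.77) and that of Psma1 (SE 3.70) are among the widest.

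DESeq2, the tool of the study, gave calls on the same counts, here in another version. These calls are not the study's list, which held fewer genes in each direction and more lower than higher. On all genes it called 21.6% of the 6251 genes with an adjusted p higher and 18.7% lower in HFD (1350 and 1168 genes). Of 30 proteasome genes with an adjusted p, it called 5 higher and 12 lower. Of these 17 genes, 14 were over 50 CPM in a single library, and 8 overlapped between the diets. All 5 called higher (Psmc4, Psmd3, Psmd4, Psmd13 and Psmd14) were over 50 CPM in HFD replicate 1 and in no other library. The 3 called genes over 50 CPM in more than 1 library were Psma3, Psmb7 and Psmd5, in both ND libraries.

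The genes around the proteasome were taken from lists of 37 genes written by hand, of which 36 were found (Paaf1 was not analysed here) and 35 tested. None was called by edgeR, and at an unadjusted p under 0.05, 2 were higher and 3 lower, where 4.9% and 6.41% of all genes tested were. These shares are close to those of all genes, so the genes below are given as single values and not as a result about the lists. The median log2 fold change was −0.34. Psmg2, a chaperone of alpha ring assembly, had 9770 and 82 counts in ND and 1 and 18 in HFD (log2 fold change −8.94, SE 3.30). Usp14, a ubiquitin-trimming enzyme of the 19S particle, had 489 and 2832 counts in ND and 10 and 13 in HFD (−6.88, SE 1.84). In both genes the HFD libraries were low and did not overlap with ND. Rps27a, which encodes ubiquitin fused to a ribosomal protein, had 2179 and 593 counts in ND and 37 and 103 in HFD (log2 fold change −4.07, SE 1.46). Nub1, which brings ubiquitin-like proteins to the proteasome, had 26 and 21 counts in ND and 1576 and 81 in HFD (5.91, SE 2.13). Rps27a was thus low and Nub1 high in both HFD libraries. Ubb, which encodes a chain of ubiquitin units, had 11558 and 35310 counts in ND and 3321 and 106 in HFD, below ND in both. The fitted log2 fold change of Ubb was −3.04 (SE 2.62, edgeR adjusted p = 0.683). Nfe2l1, the factor that raises proteasome genes when activity is short, had 27 and 89 counts in ND and 16 and 51 in HFD, which overlapped (log2 fold change −0.68, SE 0.78, edgeR adjusted p = 0.782). Of the 5 genes of MHC class I peptide loading, 3 were above background in no library.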

How the data were processed

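Counts of reads per gene were used as deposited, whole numbers for 4 libraries. Per the labels and the study's methods, the authors amplified RNA by SMART-Seq2, without molecular identifiers, and used FastQC, Trim Galore, HISAT2 on mm10 and featureCounts on the reads. The annotation release, strand setting and treatment of reads with several hits are not given in the sources used here, so reads of overlapping opposite-strand genes and of near-identical copies are uncertain. GENCODE M21 (GRCm38, the same assembly as mm10) gave symbols, coordinates and the length of all exons joined. Of 55401 identifiers it holds 55141, and 260 stayed without a name. Pseudogene copies were sought with blastn of the gene's transcripts (identity of at least 90% over at least 300 bases), which found 28 copies of 15 genes, none above 38 counts.

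The diets were compared in R 4.3.3 with the quasi-likelihood test of edgeR 4.0.16 (legacy FALSE, robust FALSE) on all genes kept by filterByExpr, after TMM normalization, with Benjamini-Hochberg adjustment, an adjusted p under 0.05 and a fold change over 1.5. Log2 fold changes are HFD minus ND and their standard error is their size divided by the root of the F statistic. DESeq2 1.42.0, limma 3.58.1 (voom), other scalings and filters, a replicate block and the omission of each library were alternatives. The functions were run on simulated data as a self-test, whose outcome is not given here and bears on no result. Libraries held 5723605 to 8223255 counts, and 3 counts correspond to 0.365 to 0.524 CPM. These floors and all intervals take in counting error alone. Values per library are given for catalytic and tissue-specific subunits, activators, Psmc3ip, the 3 genes with the most reads in each library, genes with an unadjusted p under 0.05 and the 2 smallest p in each direction without overlap. Psma7, Psmb1, Psmb3, Psmd9, the genes called by DESeq2, Ubb and the single cell type markers were named after their values were seen. The genes and lists were chosen with earlier results of these data known. The values of 1 gene of the pathway lists are not reported here.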

Additional observations from a re-analysis of the deposited data

How the results depend on the processing

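No proteasome gene was called by edgeR with RLE or library-total scaling, without the filter, with at least 10 counts in every library, by limma-voom, by edgeR's legacy fit or with any library left out. DESeq2 called 5 proteasome genes higher and 12 lower on all genes (1350 and 1168 genes in all), and 5 and 13 on the filterByExpr genes (1180 and 1111 in all). At an unadjusted p it had 5 higher in both. It called 9 genes of the pathway lists in both. In the fit on all genes, 21.6% of the genes with an adjusted p were called higher and 18.7% lower. How many listed genes had an adjusted p is not given here, so the 9 are no result about the lists. The legacy fit called 12 genes higher and 22 lower. At an unadjusted p under 0.05, lower proteasome genes numbered 6 with library totals, 1 by limma-voom and 3 by the legacy fit. The number higher was 0 without the filter. Over all genes limma-voom gave 750 at that limit, and the number is not given for the remaining settings. These counts are therefore not set against all genes. Library totals moved the median of all genes from 0.03 to 0.21 on the log2 scale, and Psmb11 (0.28), Psmc3ip (0.30) and Psme4 (0.0764) were then positive. The causes were not tested.

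With TMM scaling the sums were 14497 CPM in ND and 9206 CPM in HFD, or 1.45% and 0.921% of the effective totals. At the 95th percentile of olfactory receptors, 38 and 34 genes were above background in ND, instead of 32 and 30. In HFD they were 24 and 28, instead of 21 and 13. At 10 CPM, 8 genes were reached in 1 library, 13 in 2 and 5 in 4.

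With each library left out, proteasome genes at an unadjusted p under 0.05 numbered 0 to 5 higher and 4 to 11 lower, and the median log2 fold change ran from −1.42 to −0.39. Each of these fits leaves a diet with a single sample, and the share of all genes at that limit is not given for them. The numbers higher and lower are therefore not compared and are no result about the proteasome genes. The log2 fold change without single libraries was followed for 28 named genes only. Among these it changed sign for Psma4 (−0.55 to 7.08), Psmb5 (−1.16 to 4.07), Psmb6 (−7.62 to 0.64) and Psmb8 (−1.10 to 0.52). It also changed for Psmb11 (−0.83 to 0.54), Psmc1 (−6.34 to 8.26), Psmc3ip (−2.82 to 0.48) and Psmd10 (−7.23 to 0.61). The remaining named genes with a change were Psmd2 (−0.18 to 4.23), Psmd6 (−10.34 to 2.61) and Psme4 (−0.75 to 0.20). Genes outside those 28 were not followed for sign.

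The replicate numbers are not stated to mark a shared litter or day, and the deviations of same-numbered libraries from their diet means correlated at 0.011 over 19335 genes, so they were not taken as pairs. With a replicate block, edgeR gave 0 proteasome genes higher and 3 lower at an unadjusted p under 0.05. DESeq2 with the block called 2 proteasome genes higher and 8 lower (396 and 658 genes in all). It had 2 higher at an unadjusted p and called 6 genes of the pathway lists. Shares of all genes are not given for the counts at an unadjusted p or for the lists, so these are no result about the genes counted.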
